A study of Drosophila melanogaster with 3 samples.

Results

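The chemosensory genes of the fly encode the proteins with which it smells and tastes. The set described here holds every protein-coding gene whose symbol is Or, Gr, Ir or Obp followed by a digit, together with Orco, which came to 231 of 13945 protein-coding genes. It comprises 60 odorant receptor genes (Or, with Orco), 60 gustatory receptor genes (Gr), 60 ionotropic receptor genes (Ir) and 51 odorant-binding protein genes (Obp). A further 7 annotated pseudogenes of these families were left out. Some genes share the same annotated span, namely Or10a with Gr10a, Gr64b with Gr64c and Obp50b with Obp50c, and each was counted as a gene of its own. Membership rests on symbols alone, and no measured value entered the choice.

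Prospero was mapped in whole Drosophila melanogaster embryos by chromatin immunoprecipitation and sequencing (ChIP-seq). All 3 biological replicates came from a transgenic strain, pros-GFP, in which Prospero carries green fluorescent protein (GFP) at its C terminus, and the embryos were 2 to 18 h old and of mixed sex. This age comes from the source names, because the age label gives a number of hours that no embryo can have. The precipitation used anti-GFP according to the sample descriptions and pros according to the antibody label, and nothing says whether the strain keeps an untagged pros gene. The data hold this 1 group and no contrast of conditions. In whole embryos, binding in few cells and weak binding in many cells cannot be told apart.

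Each receptor family works in its own way. An Or protein pairs with the shared co-receptor Orco to form an odour-gated ion channel in the dendrite of an olfactory neuron, and Gr proteins are related channels that mostly serve taste, with a pair of them detecting carbon dioxide. Ir proteins descend from ionotropic glutamate receptors and combine with the broadly used co-receptors Ir8a, Ir25a, Ir76b and Ir93a, while Obps are small secreted proteins that support cells release into the fluid around the dendrites. Prospero is a homeodomain transcription factor best known for setting the fate of neuroblast daughters, and it is also expressed in a support cell of developing sense organs.

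Few of these genes had Prospero at them. A gene was counted when the summit of a peak, the position of its maximum as marked by the authors' peak caller, lay in the gene body or up to 1 kb upstream of the gene start. Below, the optimal set means the 6215 peaks that the authors kept by irreproducible discovery rate (IDR), which measures the agreement of peak ranks among replicates. The pooled list means the 30000 peaks called on the reads of the 3 replicates together. A rank is a peak's place in its list by the authors' signal, with rank 1 the strongest.

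Windows reaching 100 bp to either side of a summit are printed for 5 genes on the strand of the gene, 5′ to 3′. The first 3 belong to genes with an optimal-set summit, the next is that of the common co-receptor Orco, and the last is the weaker intronic summit of Obp99c (rank 27670, matched in replicate 3 alone), shown because its window holds a match to AAGACG, the hexamer taken here as the core of a Prospero site. The windows of Ir60e, the remaining gene with an optimal-set summit, are not shown. The only AAGACG match at an optimal-set summit of a chemosensory gene is in 1 of them. Capitals mark AAGACG or its reverse complement CGTCTT, and GAGAG or its reverse complement CTCTC. Sequence is from RefSeq's copy of the dm6 assembly. None of the 5 windows overlaps an annotated exon.
Or88a, chr3R:14108475-14108675, plus strand: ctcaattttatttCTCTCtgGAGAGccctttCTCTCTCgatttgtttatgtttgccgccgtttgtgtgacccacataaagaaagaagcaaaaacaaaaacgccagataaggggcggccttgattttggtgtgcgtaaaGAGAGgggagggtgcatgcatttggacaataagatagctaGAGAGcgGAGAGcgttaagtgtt
Gr32a, chr2L:11113410-11113610, plus strand: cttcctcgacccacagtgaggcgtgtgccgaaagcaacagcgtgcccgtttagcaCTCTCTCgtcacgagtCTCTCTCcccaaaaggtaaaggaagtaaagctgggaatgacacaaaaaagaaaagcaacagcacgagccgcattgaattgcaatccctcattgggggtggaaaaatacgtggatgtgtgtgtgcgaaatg
Gr93d, chr3R:21847502-21847702, minus strand: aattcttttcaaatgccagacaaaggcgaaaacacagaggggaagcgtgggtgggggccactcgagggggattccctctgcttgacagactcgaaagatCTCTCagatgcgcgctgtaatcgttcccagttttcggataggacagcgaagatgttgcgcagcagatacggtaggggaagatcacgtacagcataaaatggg
Orco, chr3R:5412712-5412912, minus strand: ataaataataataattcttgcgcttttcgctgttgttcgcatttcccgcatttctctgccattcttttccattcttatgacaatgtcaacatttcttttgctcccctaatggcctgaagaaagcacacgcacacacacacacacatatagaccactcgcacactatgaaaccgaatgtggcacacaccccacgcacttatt
Obp99c, chr3R:29688782-29688982, minus strand: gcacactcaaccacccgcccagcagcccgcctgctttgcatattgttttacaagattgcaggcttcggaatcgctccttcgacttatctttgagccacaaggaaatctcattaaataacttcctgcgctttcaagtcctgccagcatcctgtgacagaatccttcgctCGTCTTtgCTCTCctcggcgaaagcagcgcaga

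The windows differ in what they hold. The Or88a window has 7 matches to GAGAG on either strand, overlapping matches included, the Gr32a window has 4, and those of Gr93d and Obp99c have 1 each. The Orco window has none. Only the Obp99c window of these 5 holds AAGACG on either strand. The share of G and C bases is 44.8% at Or88a, 50.2% at Gr32a, 51.7% at Gr93d, 42.3% at Orco and 51.2% at Obp99c.

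Of the 231 chemosensory genes, 4 had a summit of the optimal set, which is 1.73% (exact binomial 95% interval 0.474% to 4.37%). Among all protein-coding genes 2502 of 13945 had one, which is 17.9%. Because long genes hold more summits, each chemosensory gene was set beside the other protein-coding genes in the same of 20 classes of region length. These like-length genes had a summit in 10.7% of cases, so that the same number of them would have held 24.8 such genes, 6.2 times as many. An annotated 5′ untranslated region (UTR) is present in 41.1% of chemosensory genes and 96.8% of like-length genes, however, and among genes without one no such gap was seen (2.21% of 136 chemosensory genes, against 1.97% of 355 other genes). The pooled list placed a summit at 24 chemosensory genes, or 10.4% (6.77% to 15.1%), against 38.2% of like-length genes and 45.9% of all genes. When only pooled summits with a counterpart in replicates 2 and 3 were kept, leaving out replicate 1, the shares were 5.19% and 27.9%. With replicates 1 and 3 they were 4.76% and 28.1%, and with replicates 1 and 2 they were 7.79% and 26.2%. The intervals cover counting error only. Genes are not replicates, many of these genes are neighbours, and no test across genes was made.

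**Figure D1:**
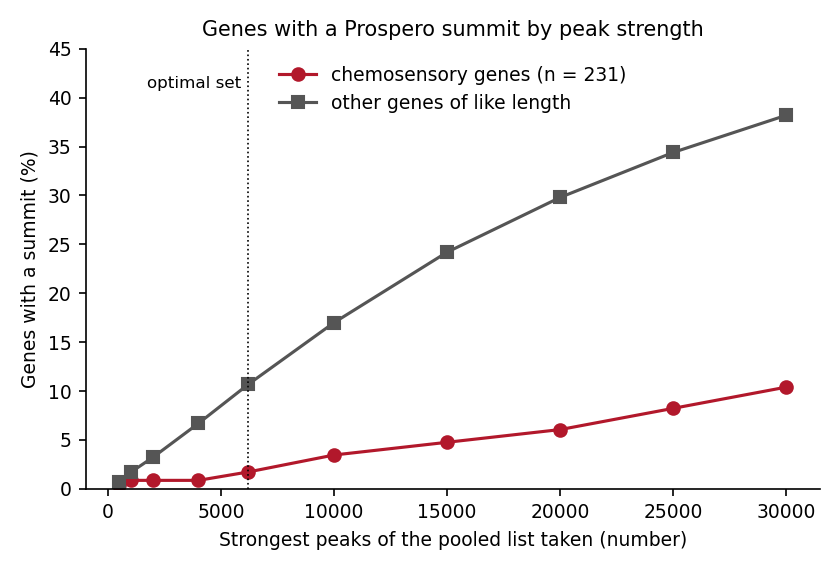
The share of genes with a summit (y axis, %) is plotted against how many of the strongest peaks of the pooled list are taken (x axis), for 231 chemosensory genes (red circles) and other protein-coding genes of like length (grey squares). The dotted line marks the size of the optimal set, where the shares are 1.73% and 10.7%, and at 30000 peaks they are 10.4% and 38.2%.

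The plot by peak strength shows how the distance between the groups, in percentage points, opened as weaker peaks were added. The ratio did not grow in the same way. The like-length share was 6.2 times the chemosensory share in the optimal set and 3.68 times in the whole pooled list. With the 500 strongest peaks, 0.433% of chemosensory genes and 0.736% of like-length genes had a summit, which is 1 chemosensory gene. With 4000 peaks the shares were 0.866% and 6.69%. With 10000 they were 3.46% and 17.0%, and with 20000 they were 6.06% and 29.8%. The curve of the chemosensory genes stayed below the other at every size that was taken.

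The low share was present in each replicate on its own. In the whole lists of 30000 peaks, 26 chemosensory genes had a summit in replicate 1 (11.3%, against 37.5% of like-length genes and 45.6% of all genes). Replicate 2 had 28 (12.1%, against 37.1% and 45.4%), and replicate 3 had 21 (9.09%, against 41.9% and 49.4%). The mean was 10.8% ± 1.56 for chemosensory genes and 38.8% ± 2.66 for like-length genes (SD, n = 3 replicates). The gap within a replicate averaged 28.0 percentage points ± 4.19, and the groups did not overlap across replicates. This spread is between replicate lists and does not measure how the share varies from one set of genes to another. The replicate lists were not split by 5′ UTR.

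Among the 6215 strongest peaks of each replicate the picture was the same at a lower level. Replicate 1 gave 4 chemosensory genes (1.73%, against 9.36% of like-length genes and 16.9% of all genes), replicate 2 gave 5 (2.16%, against 9.66% and 17.1%) and replicate 3 gave 4 (1.73%, against 12.2% and 19.4%). The mean was 1.88% ± 0.25 for chemosensory genes and 10.4% ± 1.54 for like-length genes (SD, n = 3). Nothing in the labels says how the embryos of the replicates were collected, and this spread may be partly technical.

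**Figure D2:**
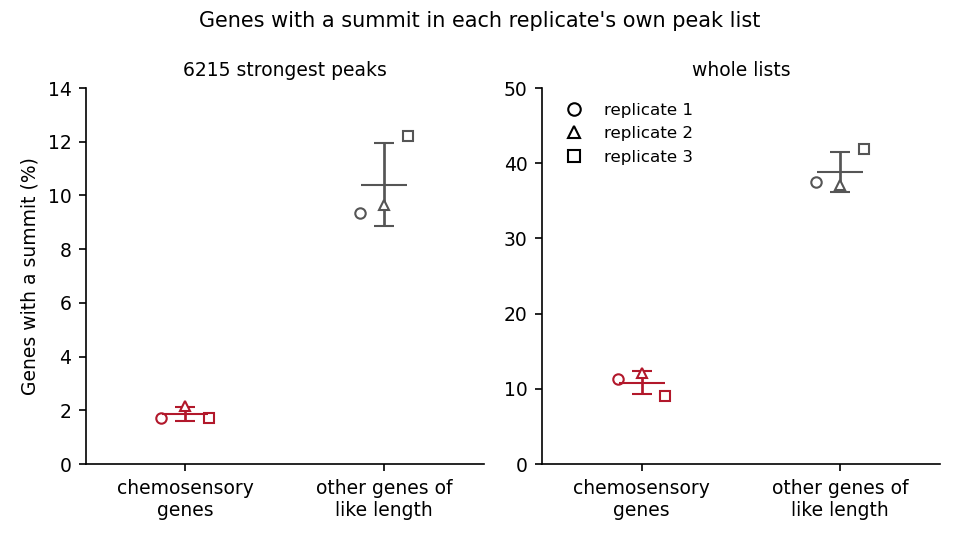
The share of genes with a summit (y axes, %) is plotted for chemosensory genes (left in each panel) and other genes of like length (right), with 1 point shape per replicate and bars at the mean with SD over 3 replicates. The panels use the whole replicate lists and the 6215 strongest peaks of each, and in both panels all 3 chemosensory points lie below all 3 points of the like-length genes.

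Across all 5 lists together, 195 of the 231 genes (84.4%) had no summit at all, against 50.1% of like-length genes. A summit in every one of the 3 replicate lists was found for 13 chemosensory genes (5.63%), against 28.4% of like-length genes. These 13 are Or88a, 5 taste receptor genes (Gr5a, Gr32a, Gr39b, Gr93d and Gr97a), 3 ionotropic receptor genes (Ir48c, Ir60e and Ir68a) and 4 odorant-binding protein genes (Obp46a, Obp56i, Obp83g and Obp99c). The summits of 1 gene in different replicates need not mark the same position.

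The strongest summit near any odorant receptor gene was at Or88a (FBgn0038203, 3R 14109445 to 14110823, plus strand), which encodes a receptor of trichoid sensilla that responds to odours of other flies. It lay 870 bp upstream of the gene start, at 14108575, and ranked 252 of 6215. In the replicate lists it ranked 305, 285 and 254 in replicates 1, 2 and 3, a mean of 281 ± 25.7 (SD, n = 3). The replicates thus placed it closely together. The summit is also in the region of CG12402, whose start is 254 bp away and so nearer than that of Or88a.

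Ir60e (2R 24529554 to 24531272, minus strand) had the next strongest summit and is the only ionotropic receptor gene with one in the optimal set. The summit, at 24531869, lay 597 bp upstream and ranked 890, with replicate ranks of 1362, 791 and 872. A second summit at 24532068, 796 bp upstream, ranked 3613, and in replicate 2 the same peak matched both. Both summits lie inside the body of CG13585, whose start is 275 bp from the stronger of them. Of these neighbours Ir60e is therefore the gene whose start is farther from the stronger summit.

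Gr32a and Gr93d are the taste receptor genes with a summit in the optimal set, both near its weak end. Gr32a (FBgn0041246, 2L 11114014 to 11115823, plus strand) encodes a receptor of bitter-sensing neurons that is also used to detect male pheromone. Its summit at 11113510, 504 bp upstream, ranked 5850, with replicate ranks of 5525, 4649 and 9090 and the start of Idua 449 bp away. Gr93d (3R 21845454 to 21846659, minus strand) had a summit at 21847602, 943 bp upstream, which ranked 5961, with replicate ranks of 7909, 5026 and 7074. Of the 5 optimal-set summits in chemosensory regions, this was the one that lay in no other protein-coding gene's region. All 5 were upstream, and none was in the body of a chemosensory gene.

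Several summits lay just outside the regions that were counted. An optimal-set summit of rank 864 lay 1155 bp upstream of Or45b and in no gene region, and it is the nearest one outside. Obp59a had one 1846 bp upstream (rank 2753), in the region of robo1, which encodes a receptor of axon guidance. Or67c had one 1927 bp upstream (rank 4003). The summits nearest to the starts of Gr93a and Gr39b lay downstream of those starts and beyond the gene bodies, at 2172 bp (rank 1474) and 2197 bp (rank 6215).

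The 24 chemosensory genes of the pooled list held 31 summits, of which 22 were upstream, 4 in coding sequence, 3 in introns and 2 in UTRs. These peaks were weak ones. The median rank of the best summit per gene was 17421.5, against 11440 for like-length genes with a summit. For 9 of the 24 genes every summit was also in the region of another protein-coding gene. Such sharing was not particular to these genes. With summits in no other gene's region alone, their share went from 10.4% to 6.49%, and that of like-length genes from 38.2% to 15.2%. The best summit was nearest to the gene's own start in 19 of 24 and nearest to the start of a gene outside the set in 5. This count was not made for like-length genes. Of the 31 summits, 13 had a counterpart within 150 bp in all 3 replicate lists, 11 in 2, 6 in 1 and 1 in none. Of all pooled-list summits 53.4% had one in all 3, 29.8% in 2, 15.0% in 1 and 1.76% in none.

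**Figure D3:**
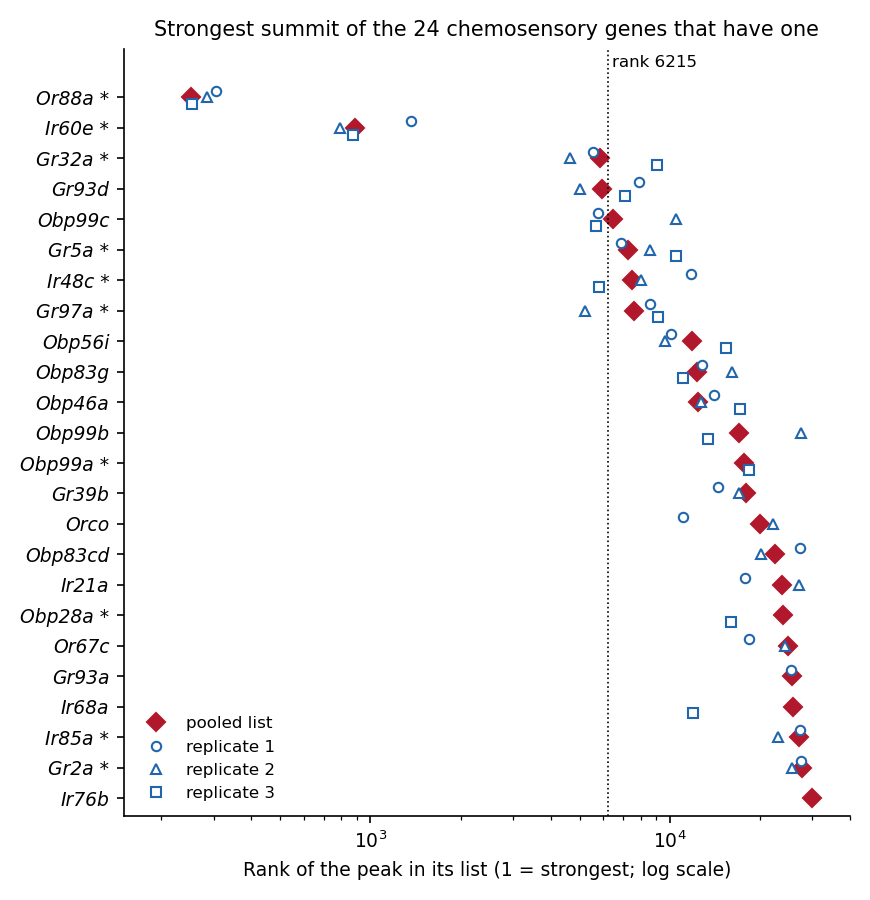
The rank of the strongest pooled-list summit (red diamonds) and of the matching peak in each replicate list (open circles, triangles and squares for replicates 1, 2 and 3) is plotted on a log axis for the 24 chemosensory genes that have one, strongest at the top. A missing open symbol means no replicate summit within 150 bp, and an asterisk marks a summit that is also in another protein-coding gene's region. Or88a stands alone at rank 252, and 13 of the 24 genes lie beyond rank 15000.

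Taste receptor genes supplied 7 of the 24. Gr5a, which encodes a receptor for the sugar trehalose, had a summit 726 bp upstream that ranked 7253, with replicate ranks of 6860, 8590 and 10508. That summit is inside Tre1, a G protein-coupled receptor of germ cell migration, whose start is 86 bp away. Gr97a had its best summit 494 bp upstream at rank 7611, inside CG5521, whose start is 49 bp away. The summit of Gr39b at rank 18061 was in coding sequence and in no other gene's region. Gr93a, a gene needed for the taste of caffeine, had a summit 29 bp inside its start at rank 25652, matched in replicate 1 alone. The summit 45 bp inside Gr2a, at rank 27673, is also inside futsch, which encodes a neuronal microtubule-associated protein.

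Odorant-binding protein genes made up 8 of the 24, the most of any family, although none of them had a summit in the optimal set. The strongest was an intronic summit of Obp99c, 1373 bp from the start, at rank 6458, with replicate ranks of 5745, 10534 and 5691, and its window holds no AAGACG. Obp56i had an intronic summit at rank 11923, Obp83g 1 at rank 12327 that lay 338 bp upstream, and Obp46a 1 at rank 12460 that lay 851 bp upstream. These 4 best summits were each matched in all 3 replicates and lay in no other gene's region. Obp99b (rank 17066, 236 bp upstream), Obp99a (rank 17777, 433 bp upstream, inside the channel gene ppk30) and Obp83cd (rank 22578, 688 bp upstream) were matched in 2, 1 and 2 replicates. Obp28a, one of the abundant binding proteins of the antenna, had a summit 833 bp upstream at rank 23990, inside RapGAP1. Another lay 17 bp upstream at rank 26710, and each was matched in 1 replicate.

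Among ionotropic receptor genes, Ir48c had a summit 740 bp upstream at rank 7491, with replicate ranks of 11802, 7993 and 5826, inside ths, which encodes a fibroblast growth factor ligand. The summit of Ir21a, a gene of cool sensing, was in its coding sequence at rank 23720. That of Ir68a, a gene of moist-air sensing, lay 583 bp upstream at rank 25852 and was matched in replicate 3 alone. Ir85a had 1 at rank 27012, 726 bp upstream and inside Pif1A and Pif1B. Of the odorant receptor genes other than Or88a, Or67c had a summit in its coding sequence at rank 24891, and the remaining gene was Orco.

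Of the co-receptor genes, which whole families depend on, none of 5 had a summit in the optimal set, against 21.4% of other genes of their length, and 2 had one in the pooled list, against 58.4%. These counts are too small to set the co-receptors apart. Orco had a summit 406 bp upstream at rank 20041 of 30000, which was matched in replicate 1 (rank 11121) and replicate 2 (rank 22224) and not in replicate 3. Ir76b had one 111 bp upstream at rank 29997, almost the last peak of the list, and it was matched in no replicate. Ir8a, Ir25a and Ir93a had no summit in their regions in the pooled list, where the nearest was 10.8, 2.59 and 13.0 kb from the start. The nearest summit of the optimal set was 8.18 kb from the start of Orco, 81.1 kb from Ir8a, 14.1 kb from Ir25a, 109 kb from Ir76b and 26.5 kb from Ir93a.

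Several other well-studied genes, listed with earlier results of these data known, had no summit of the optimal set. The carbon dioxide receptor genes Gr21a and Gr63a lay 43.4 and 8.79 kb from the nearest one, and Gr63a had a summit in replicate 3 alone, at rank 23138. The sugar co-receptor gene Gr64f lay 40.3 kb away, the fructose receptor gene Gr43a 11.3 kb and the bitter receptor gene Gr66a 8.26 kb. Gr28b, a gene with roles in warmth and light sensing, lay 40.9 kb away, with a summit in its region in replicate 1 (rank 17908) and replicate 2 (rank 25963) and none in the pooled list. Or67d, which encodes the receptor for the male pheromone cis-vaccenyl acetate, lay 16.2 kb from the nearest optimal-set summit and 1.05 kb from the nearest pooled one. Or22a, an ester receptor gene, lay 36.4 and 2.23 kb away, and Or83a lay 5.03 kb from the nearest in either list. Among binding protein genes the distances to the optimal set were 38.8 kb for Obp83a, 37.2 kb for Obp83b, 8.9 kb for Obp49a, whose product takes part in the suppression of sweet taste by bitter compounds, and 5.73 kb for Obp28a.

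All 4 families had fewer genes with a summit than like-length genes in both lists, by different margins. In the optimal set the share was 1.67% of Or genes with Orco (against 10.5% of like-length genes), 3.33% of Gr genes (against 10.7%) and 1.67% of Ir genes (against 14%). It was 0 of 51 Obp genes (0% to 6.98%), against 7.19%. Pooled-list shares were 5.0% of Or genes (against 39.0%), 11.7% of Gr genes (against 39.4%), 6 of 60 Ir genes (against 44.6%) and 15.7% of Obp genes (against 28.4%). The interval reaches the like-length value for Gr genes in the optimal set (0.406% to 11.5%) and for Obp genes in the pooled list (7.02% to 28.6%). Whether families differ from each other was not tested, and their intervals overlap.

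**Figure D4:**
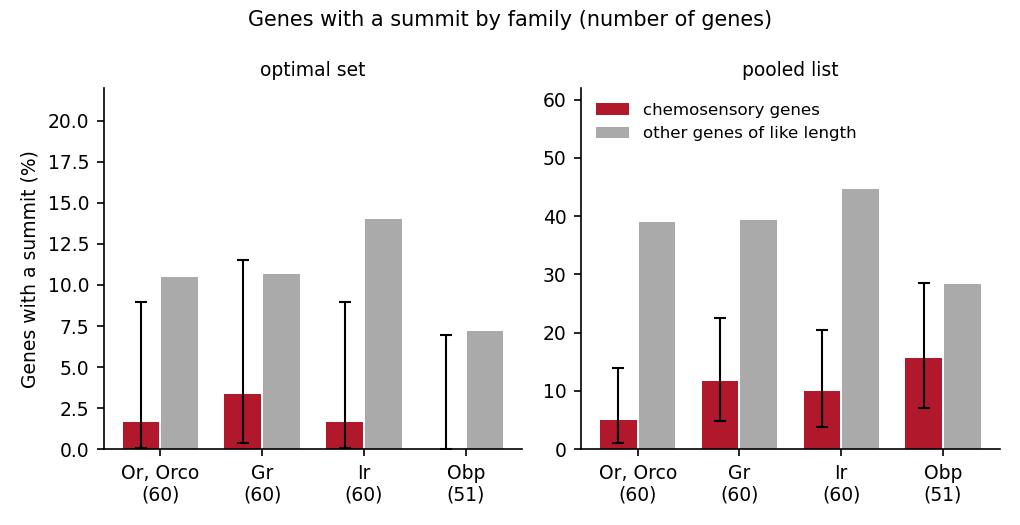
The share of genes with a summit (y axes, %) is drawn for each family, with chemosensory genes in red and other genes of like length in grey, for the optimal set and the pooled list. Error bars are exact binomial 95% intervals for counting error, and the red bars are lower in every pair, and in the pooled list the narrowest gap is that of Obp genes (15.7% against 28.4%).

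By chromosome arm the chemosensory share was below the like-length share on all 5 arms that hold such genes. The like-length genes in these comparisons came from all arms, so no arm was set beside its own other genes. Arm 3R holds 55 of them, of which 11 had a pooled-list summit (95% interval 10.4% to 33.0%), against 37.8% of like-length genes. Arm 2R holds 75, of which 4 (5.33%, 1.47% to 13.1%) had one, against 34.4%. The counts were 4 of 33 on 2L (against 41.8%), 3 of 37 on 3L (against 43.3%) and 2 of 31 on X (against 38.3%). The intervals of the arms overlap, and differences between arms were not tested. Of 115 genes with another chemosensory gene within 10 kb, 7 (6.09%, 2.48% to 12.1%) had a pooled-list summit, against 36.5% of like-length genes. Of the 116 without such a neighbour 17 did (14.7%, 8.78% to 22.4%), against 39.9%. These 2 intervals overlap.

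The largest arrays held no summit of the pooled list. Joined at gaps of up to 20 kb, the 231 genes formed 146 groups, of which 103 were single genes, 21 had a member with a pooled-list summit and 4 had a member with an optimal-set summit. With each group counted once, the optimal-set share was 2.74%, against a like-length share of 11.5%. The 5 arrays of 5 or more genes had no pooled-list summit between their first and last base. They are the sugar receptor array Gr64a to Gr64f (3L, 10.8 kb), Gr22a to Gr22e (2L, 10.9 kb), Ir7b to Ir7g (X, 22 kb), Obp56a to Obp56f (2R, 16.3 kb) and Obp50a to Obp50e (2R, 5.05 kb). In the replicate lists, Obp56a had a summit in its region in replicate 1 (rank 23406) and replicate 3 (rank 28892). Spans of like size elsewhere were not counted.

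The shares were also compared by length. The genes were put in order of length and cut into 4 groups of near-equal number. In the group of the shortest, with regions of 1465 to 2233 bp, 1.72% had an optimal-set summit, against 5.52% of other genes of that length. In that of the longest, a wide range of 2909 to 105437 bp, 0 of 57 did, which allows up to 5.26%, against 26.7% of 7586 other genes. With the pooled list these groups gave 10.3% against 25.5%, and 12.3% against 59.5%. The other genes of the longest group were not matched by length within its range, so its gaps are not gaps at like length. The 5 longest genes, Ir41a (104 kb), Ir40a (24.9 kb), Obp73a (10.6 kb), Ir93a (8.24 kb) and Gr28b (7.42 kb), had no summit in either list. Ir41a, which encodes a subunit of a polyamine receptor, had none in any of the 5 lists. Its start lay 765 kb from the nearest optimal-set summit and 88.3 kb from the nearest pooled one, so summits were few in its surroundings too. Of other genes in its length class 79.3% had a pooled-list summit. Ir40a, a gene of dry-air sensing, had none in any list either, where 80.0% of other genes in its length class had a pooled-list summit. The length classes hold genes from anywhere in the genome and were not matched for location. A lack of summits in the surroundings cannot be told apart here from a trait of these genes.

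The gene models of the families differ from those of other genes in a way that touches these shares. For the 136 chemosensory genes without an annotated 5′ UTR the gene body starts at the start codon, and the 1 kb upstream is counted back from there. By family a 5′ UTR is present in 28.3% of Or, 35.0% of Gr, 12 of 60 Ir and 88.2% of Obp genes. Of the 95 chemosensory genes with a 5′ UTR, 1 (1.05%, 0.0266% to 5.73%) had an optimal-set summit, against 11.1% of like-length genes with one. Of the 136 without, 3 did (2.21%, 0.457% to 6.31%), against 7 of 355 other genes without (1.97%, 0.796% to 4.02%), or 1.63% at like length. In the optimal set the low share was therefore seen against genes with an annotated 5′ UTR and not against those without.

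The pooled-list shares were lower for both kinds of gene. With a 5′ UTR, 16 of 95 chemosensory genes had a summit (16.8%, 9.94% to 25.9%), against 38.6% of like-length genes. Without one, 8 of 136 did (5.88%, 2.57% to 11.3%), against 57 of 355 other genes (16.1%, 12.4% to 20.3%). The part of the gene models in these differences was not tested.

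The surroundings of the genes were also sparse in summits. The median distance from a chemosensory gene start to the nearest optimal-set summit was 24.9 kb, against 11.5 kb for like-length genes, and 24.2% lay within 10 kb, against 46.0%. The median was 27.9 kb for Or, 31.3 kb for Gr, 24.5 kb for Ir and 22 kb for Obp genes. To the pooled list the median was 9.42 kb, against 2.58 kb. Within 5 kb of the start there were 2.08 optimal-set summits per 100 kb, against 4.71 around like-length genes. Within 50 kb the densities were 3.31 and 5.4 per 100 kb, so the gap was narrower there.

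**Figure D5:**
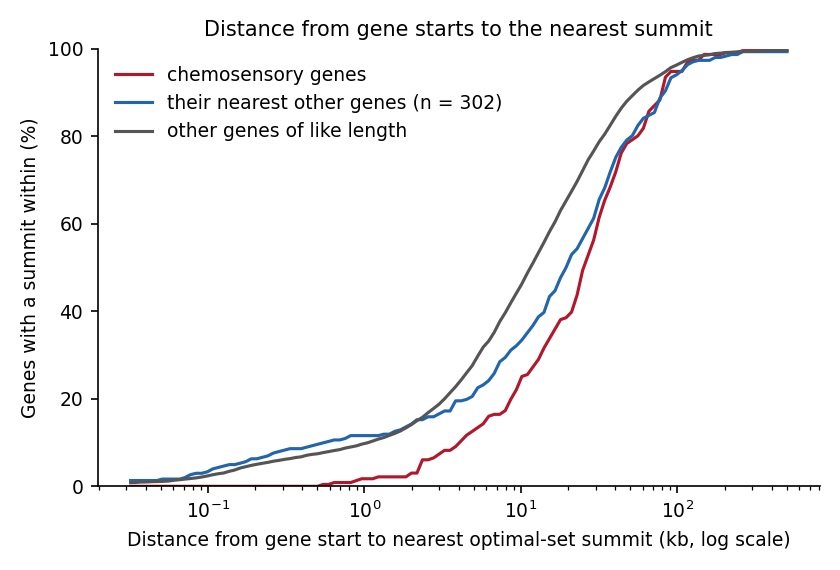
The cumulative share of genes (y axis, %) with an optimal-set summit within a given distance of the gene start (x axis, kb, log scale) is drawn for chemosensory genes, for their nearest neighbours outside the set and for other genes of like length. At 10 kb the shares are 24.2%, 32.8% and 46.0%.

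The neighbours of the chemosensory genes lay between these and like-length genes at 5 and 10 kb from a summit, and not close to the start, where 1.73% of chemosensory genes, 11.6% of the neighbours and 9.84% of like-length genes had an optimal-set summit within 1 kb. The nearest protein-coding genes outside the set on either side, 302 in all, had an optimal-set summit in 15.9% of cases (12% to 20.5%), against 20.7% of genes of their own length. The pooled-list values were 39.7% (34.2% to 45.5%) and 48.7%. Their median distance to the optimal set was 19.5 kb, so the loci as a whole lay farther from summits than like-length genes did. Within 5 kb the summit density was 2.08 per 100 kb around chemosensory gene starts and 3.58 around these neighbours.

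Sequence at the summits and at the gene starts was searched for 4 motifs on both strands, as a description. AAGACG (reverse complement CGTCTT) was in 1 of the 5 such windows at optimal-set summits in chemosensory regions, a window of Ir60e. It was in 11.3% of all optimal-set windows. At pooled-list summits it was in 5 of 31 (16.1%, 5.45% to 33.7%), against 7.95% of all pooled windows, a value inside that interval. GAGAG (reverse complement CTCTC), the core that GAGA factor recognises, was in 4 of 5 optimal-set windows, against 40.3%, and in 14 of 31 pooled windows (45.2%, 27.3% to 64.0%), against 30.9%. Each motif was searched separately, and matches of different motifs may overlap by a few bases.

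The promoters of the genes, taken as 250 bases before to 50 after the gene start, differed in letters from those of other genes. TATCGATA, the palindromic DRE element of many broadly expressed fly genes, was in 1 of 231 chemosensory promoters (0.433%, 0.011% to 2.39%), against 9.68% of like-length promoters. Among genes with a 5′ UTR it was in 0 of 95 (0% to 3.81%), against 9.73% of other genes. TATAAA (reverse complement TTTATA), the TATA box core, was in 58.0% (51.4% to 64.5%), against 48.9%, and among genes with a 5′ UTR in 62.1% (51.6% to 71.9%), against 45.6%. By family it was in 47 of 60 Or, 18 of 60 Gr, 33 of 60 Ir and 36 of 51 Obp promoters. AAGACG was in 3.46% (1.51% to 6.71%), against 6.46%, and GAGAG in 21.2% (16.1% to 27.1%), against 25.5%. The median share of G and C bases was 39.3%, against 36.7%. For genes without an annotated 5′ UTR this window is placed at the start codon.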

How the data were processed

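Peak lists in narrowPeak format on the dm6 build were deposited for 3 replicates, for their pooled reads and as an optimal IDR set. The signal of each peak is the value the authors deposited, on a scale they do not state, and it served only to rank peaks within a list. The sources used here name no aligner, peak caller or IDR cut-off. Chromatin was sheared to 200 to 800 bp, per the labels. With no read counts in the lists, sequencing depth is unknown, and each replicate list and the pooled list has 30000 peaks. The control library named as possible was not used here.

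Genes came from Ensembl release 115 (BDGP6, dm6 coordinates) and sequence from RefSeq. A gene's region is its body plus 1000 bp upstream, positions are 1-based, and a summit is the peak start plus its offset. The like-length share is the mean, over chemosensory genes, of the share among other genes in the same of 20 bins of region length. Peaks of different lists were matched within 150 bp. Intervals are Clopper-Pearson at 95% and, like the limit of 3 counts given for 0 of 57 and 0 of 231 genes, cover counting error only. The counting was tested on simulated data. Tools were Python 3.11.15 with numpy 2.4.6, pandas 2.3.3, scipy 1.17.1 and matplotlib 3.10.9.

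Named genes are those with an optimal-set summit in the region, the 20 with the strongest pooled-list summits, the 5 nearest to an optimal-set summit outside the region, a list of well-studied receptors and binding proteins, and genes of related lists with an optimal-set summit. Other chemosensory genes are named as examples, chosen after their values were seen. The genes and lists were chosen with earlier results of these data known. Alternatives were other region limits, stronger peaks, peaks matched in all replicates, leaving out each replicate, summits in 1 gene region, merged regions or clusters, another binning, the RefSeq gene models and, chosen after seeing the data, genes with, or without, an annotated 5′ UTR (those without in 5 length bins).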

Additional observations from a re-analysis of the deposited data

How the results depend on the processing

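The share of chemosensory genes with an optimal-set summit was below the like-length share under 13 of the 14 alternatives for which both were computed. The exception, chosen after seeing the data, kept only genes without an annotated 5′ UTR, which are 136 of the 231: there the share was 2.21% against 1.63%. No paired analysis was possible between groups of samples, because the 3 replicates form a single group. With the gene body alone the share was 0% (0 genes) against 3.89%, and with 500 bp upstream 0% (0 genes) against 8.87%. A count of 0 of 231 allows up to 1.3%. With 2 kb upstream 7 genes had a summit, against 13.3%, and with the stronger 50% of the set 2, against 5.13%. With summits in no other gene's region 1 gene had one (0.433%), against 4.13%, and with a 5′ UTR required (chosen after seeing the data) 1. The like-length share was 10.1% for summits matched in all 3 replicates, 10.2% to 10.4% when leaving out each replicate in turn, and 11.5% with clusters counted once. Leaving out a replicate means keeping the deposited summits that had a counterpart in both other replicates. No peaks were called anew, so these summits still rest on reads of all 3. For pooled peaks the chemosensory share was 3.03% for the gene body alone, 4.76% for the stronger 50% (against 24.2%), 4.76% for summits matched in all 3 replicates (against 23.9%), 4.76% to 7.79% without each replicate in turn (against 26.2% to 28.1%), 6.49% for summits in no other gene's region (against 15.2%), 16.8% with a 5′ UTR required and 5.88% for genes without one. The few optimal-set genes thus rest on summits 504 to 943 bp upstream, most of them shared with a neighbour. Without counts in the lists, what depth limits cannot be stated.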

Other observations

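Genes that act beside the receptors held summits in varying shares. Of 11 transcription factor genes known from olfactory neurons or from the development of olfactory organs, 6 had an optimal-set summit. That is 54.5% (exact binomial 95% interval 23.4% to 83.3%), against 34.4% of other genes of like length. The 6 were sim (3 summits, best rank 1977), pdm3 (2, best rank 2844), onecut (2, best rank 4570), Xbp1 (rank 4974), acj6 (rank 5626) and Fer1 (rank 5748). Those without one were ato, amos, lz, zf30C and Eip93F. The POU factors acj6 and pdm3 select which odorant receptor a neuron expresses. In the pooled list 10 of the 11 had a summit (58.7% to 99.8%), against 62.6%, and Eip93F had none. Both like-length values lie inside the intervals, and genes of these lists do work in other tissues too.

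Lists of other sensory genes are given for comparison, with no test between them and the chemosensory genes. Of 23 genes for lush, Snmp1, Snmp2 and the CheA and CheB proteins, 1 had an optimal-set summit, CheB42c (2 summits, best rank 491), which is 4.35% (0.11% to 21.9%), against 9.63% of like-length genes, and its span of 27024 bp holds CheB42a. The binding protein gene lush and Snmp1, both needed for sensing cis-vaccenyl acetate, had none in either list. Of 30 pickpocket channel genes 2 had an optimal-set summit (6.67%, 0.818% to 22.1%, against 14.8%), ppk29 at rank 3158 and ppk20 at rank 3873. Of 7 rhodopsin genes 1 did (14.3%, 0.361% to 57.9%, against 19.5%), the blue-light receptor gene Rh5 at rank 49. The like-length share lies inside the interval for each of these 3 lists. Of 13 ionotropic glutamate receptor genes, the relatives of the Ir family, none did (0% to 24.7%), against 31.1% of like-length genes. In the pooled list 3 of these 13 had a summit, against 65.3%.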
